A study of Homo sapiens with 2 samples.

Results

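The oxytocin receptor gene OXTR was examined together with the endothelin system (the ligands EDN1 and EDN2, the converting enzyme ECE1 and the receptors EDNRA and EDNRB) and the protease-activated receptors F2R and F2RL1. These 8 genes were taken by their symbol from the 57773 gene rows listed for each library, and all 8 were found, each as 1 row. The family was selected on the RPKM of OXTR and EDN1, which differ strongly between the libraries, so the differences of its members are given as a description and none is tested. Of the 8 genes, 6 were measured, meaning that they reached at least 1 RPKM (read counts divided by exon length and by library size) in at least 1 library. EDN2 and EDNRB did not reach that level.

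Total RNA came from BFTC 905, an established human bladder carcinoma line. One library was made from cells transfected with the empty vector pcDNA3.1-myc-His (-) A and the other from cells transfected with a plasmid that overexpresses ANGPTL4, and G418 was used to select stable clones of both. The labels do not say whether 1 clone or several were sequenced. There was 1 library per group, so each difference compares these 2 libraries and has no replicate check, and in such bulk RNA fewer expressing cells cannot be told apart from less RNA per cell. ANGPTL4 itself, a secreted regulator of lipoprotein lipase, had 3.92 RPKM with the vector and 91.2 RPKM with the plasmid. The RPKM steps corresponded to 6572767 reads for the control and 3233596 reads for the ANGPTL4 culture, so reads are given beside each level, and the 95% intervals cover counting error only. All 9 urothelial and epithelial markers were measured, with summed levels of 1608 and 1563 RPKM. None of the 6 endothelial markers in the table reached 1 RPKM, with summed levels of 0.621 and 1.15 RPKM, and TEK and CLDN5 were listed at 0 in both libraries. Of the 5 smooth muscle markers only SMTN was measured, and the list summed to 5.59 and 6.57 RPKM.

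All 5 receptors are G protein-coupled and signal through Gq/11, which raises calcium through phospholipase C. Oxytocin, a peptide hormone, acts on its receptor in uterine and mammary muscle. Endothelins are made as long precursors that furin-like proteases and then endothelin-converting enzymes cut to short vasoactive peptides. F2R and F2RL1 encode PAR1 and PAR2, which carry their own ligand and are switched on when a protease cuts their outer end, thrombin for PAR1 and trypsin-like proteases for PAR2. In bladder and other epithelia PAR2 is best known as a sensor of such proteases, and endothelin-1 is known as a product of endothelium and of many carcinoma lines.

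The promoters of the 3 members with the lowest ratios are shown as the 250 bases before the annotated start, 5′ to 3′ on the gene's own strand, from RefSeq on GRCh38.p14. A window was present for 7 of the 8 genes, and where a gene had several, the one nearest the start of its lowest-numbered GENCODE transcript was taken. The EDN1 window (chr6:12290111-12290360, plus strand) has in capitals its matches to 4 motifs searched on both strands: TGACTNA for AP-1, AGATAA for GATA factors, ACGTG for the hypoxia-inducible factor core, and TATAAA for the TATA box.
EDN1: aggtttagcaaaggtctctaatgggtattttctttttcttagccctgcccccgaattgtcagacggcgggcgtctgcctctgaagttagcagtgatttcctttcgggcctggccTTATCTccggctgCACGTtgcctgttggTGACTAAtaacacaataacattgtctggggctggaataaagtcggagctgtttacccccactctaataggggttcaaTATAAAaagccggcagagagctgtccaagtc
The matches lie, in the order printed, 136 to 131 (GATA, minus strand), 123 to 119 (hypoxia core, minus strand), 108 to 102 (AP-1) and 31 to 26 bases (TATA box) before the start, and none overlaps another. AP-1 and GATA sites are well known elements of this promoter. Factors that bind the AP-1, GATA and hypoxia motifs are in the list of known EDN1 regulators used below. The search was therefore not neutral, and neither these matches nor their absence elsewhere is read as a result. Of 34943 promoter windows of this length, 9.19% held the GATA letters, 18.5% the hypoxia core, 9.82% the AP-1 letters and 10.8% the TATA letters. The OXTR (chr3:8769614-8769863, minus strand) and F2RL1 (chr5:76818780-76819029, plus strand) windows held no match to these 4 motifs. They are printed with CG dinucleotides, the sites where mammalian DNA is methylated, in capitals, since the series concerns epigenetic silencing.
OXTR: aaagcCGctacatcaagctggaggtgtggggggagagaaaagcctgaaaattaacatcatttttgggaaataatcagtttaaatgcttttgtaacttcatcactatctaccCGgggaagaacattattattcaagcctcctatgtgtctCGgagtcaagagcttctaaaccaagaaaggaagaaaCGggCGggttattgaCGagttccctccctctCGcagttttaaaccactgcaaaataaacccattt
F2RL1: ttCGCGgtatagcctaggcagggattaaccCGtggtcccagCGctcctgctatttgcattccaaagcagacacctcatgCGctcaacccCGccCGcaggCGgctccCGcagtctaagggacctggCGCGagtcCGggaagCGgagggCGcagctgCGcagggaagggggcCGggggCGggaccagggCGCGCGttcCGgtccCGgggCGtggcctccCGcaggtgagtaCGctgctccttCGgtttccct
The OXTR window held 7 CG dinucleotides, the EDN1 window 9 and the F2RL1 window 26, against a median of 11 over all windows. Of all windows, 43.8% held as many CG dinucleotides as OXTR or fewer, 47.9% as many as EDN1 or fewer and 82.3% as many as F2RL1 or fewer. The windows end at the start, so CG dinucleotides beyond it were not counted, and these shares do not describe a whole promoter region. No DNA methylation was measured in these files.

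OXTR was the member that differed most. It was at 2.46 RPKM in the vector control library (95% interval 1.93 to 3.09, 73 reads) and at 0.0685 RPKM in the ANGPTL4 library (0.00173 to 0.382, 1 read). At an equal level, 35.9 reads would have been counted in the ANGPTL4 library. The ratio of ANGPTL4 to control was 0.0278 (0.000696 to 0.160), which is 35.9-fold lower with an interval from 6.25-fold to 1438-fold. On the log2(RPKM + 1) scale, which understates the change of low genes, its ratio was -1.70, the 15th lowest of 11801 measured genes. OXTR (hg19 coordinates from here on, chromosome 3, 8792094 to 8811314, its exons summed) lies within the annotated region of CAV3, the muscle caveolin, which had 0 reads with the vector and 1 read with the plasmid.

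EDN1, which encodes the precursor of endothelin-1, was also lower in the ANGPTL4 library (chromosome 6, 12290596 to 12297427). Its level was 5.76 RPKM in the control (4.55 to 7.20, 77 reads) and 1.98 RPKM in the ANGPTL4 library (1.05 to 3.38, 13 reads). The ratio was 0.343 (0.175 to 0.622), and its log2 ratio of -1.18 was the 104th lowest. EDN2, the gene of a second endothelin (chromosome 1, 41944446 to 41950344), had 1 read in the control and none in the ANGPTL4 library. With 3 reads as the limit that a count of 0 allows, up to 0.566 RPKM of EDN2 in the ANGPTL4 library is possible, so no difference was detectable. EDN3, the remaining endothelin gene, was listed at 0 in both libraries. EDN1 was therefore the endothelin ligand gene with the highest level in each library.

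ECE1, which encodes the enzyme that releases mature endothelin from its precursor, was the most abundant of the 8 genes (chromosome 1, 21543740 to 21671997). Its level was 22.8 RPKM in the control (21.4 to 24.2, 1087 reads) and 20.0 RPKM in the ANGPTL4 library (18.2 to 21.9, 469 reads). The ratio of 0.877 (0.785 to 0.978) lay close to the median ratio of 0.907 over 10672 measured genes with recovered reads.

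EDNRA, the receptor that mediates endothelin constriction of vessels (chromosome 4, 148402069 to 148466106), was at 1.36 RPKM in the control (0.965 to 1.87, 38 reads) and 1.02 RPKM in the ANGPTL4 library (0.559 to 1.71, 14 reads). The ratio was 0.749 (0.375 to 1.41), so at this depth neither an equal level nor one that is 2.67-fold lower lies outside counting error. EDNRB, the second endothelin receptor (chromosome 13, 78469616 to 78493903), was listed at 0 in both libraries. A count of 0 allows up to 0.0814 RPKM with the vector and 0.165 RPKM with the plasmid, on an exon length of 5607 bases taken from the annotation. EDN1 stood at 4.22 times the level of EDNRA in the control and at 1.94 times in the ANGPTL4 library. The ANGPTL4 value was 0.461 times the control value (counting interval 0.179 to 1.17), so an unchanged ratio lies within counting error.

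The protease-activated receptors lie beside each other on chromosome 5. F2RL1 (76114758 to 76131140) was at 15.1 RPKM in the control (13.4 to 17.0, 294 reads) and 7.95 RPKM in the ANGPTL4 library (6.26 to 9.95, 76 reads). Its ratio was 0.525 (0.403 to 0.678), and its log2 ratio of -0.85, the 383rd lowest, did not reach 2-fold. F2R (76011868 to 76031606) was at 2.66 RPKM in the control (2.07 to 3.35, 71 reads) and 2.74 RPKM in the ANGPTL4 library (1.92 to 3.79, 36 reads), a ratio of 1.03 (0.670 to 1.56). PAR2 transcripts were 5.69 times as abundant as those of PAR1 in the control and 2.90 times in the ANGPTL4 library. The 2 further receptors of the family, F2RL2 and F2RL3, were listed at 0 in both libraries.

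**Figure D1:**
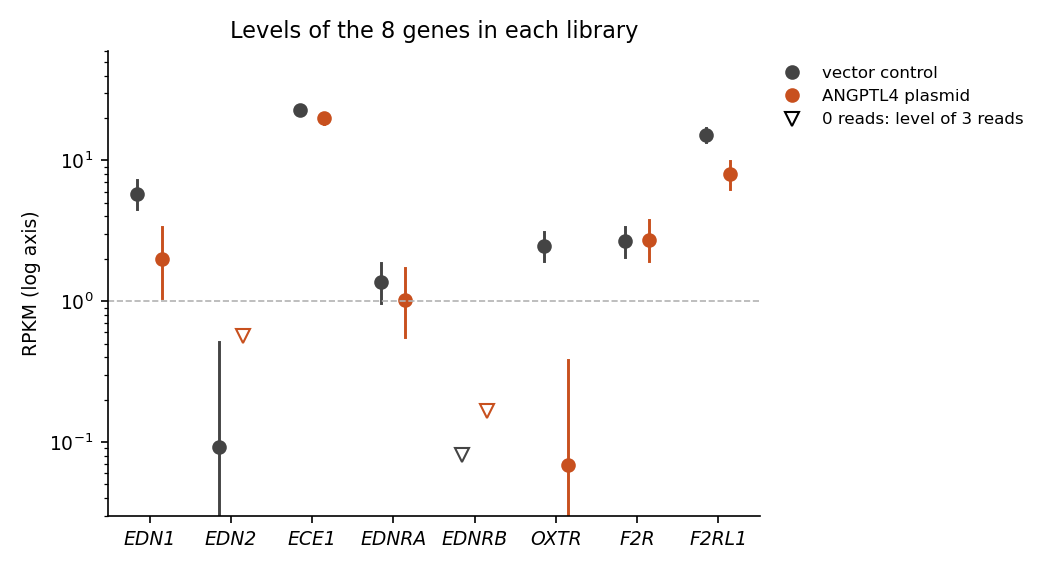
RPKM (log axis) of the 8 genes in the vector control library (dark) and the ANGPTL4 library (orange); bars are exact 95% Poisson intervals of the reads, cut off at the lower edge of the axis, open triangles mark the level of 3 reads where a gene had none, and the dashed line marks 1 RPKM. OXTR lies at 2.46 RPKM (control) and 0.0685 RPKM (ANGPTL4), whereas F2R lies at 2.66 and 2.74 RPKM.

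The order of the levels changed between the libraries. In the control, ECE1 was followed by F2RL1, EDN1, F2R, OXTR, EDNRA, EDN2 and EDNRB, and the intervals of neighbours overlapped only for F2R with OXTR and for EDN2 with EDNRB. In the ANGPTL4 library ECE1 and F2RL1 again stood first, followed by F2R, EDN1 and EDNRA, whose neighbouring intervals overlapped, and then OXTR, EDN2 and EDNRB, which likewise overlapped. F2R and OXTR, at like levels in the control, were 40.0-fold apart in the ANGPTL4 library by the 1 OXTR read.

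By the size rule of at least 2-fold on the log2(RPKM + 1) scale, 2 of the 6 measured members (OXTR and EDN1) were lower and 0 were higher. Over all 11801 measured genes, 1.92% were lower and 1.19% higher by this rule (226 and 141 genes), or 139 and 196 genes after centring on the median gene, which raised every log2 ratio by 0.11. The interval of the ratio lay wholly below 1 for 4 members (OXTR, EDN1, F2RL1 and ECE1), against 28.0% of the measured genes with recovered reads. It lay wholly past 2-fold lower for 1 member, OXTR, against 0.543%. Nothing is read from these counts, because OXTR and EDN1 chose the family. The median log2 ratio of the 6 members was -0.54, and that of all measured genes was -0.11, 64.4% of which were lower in the ANGPTL4 library.

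**Figure D2:**
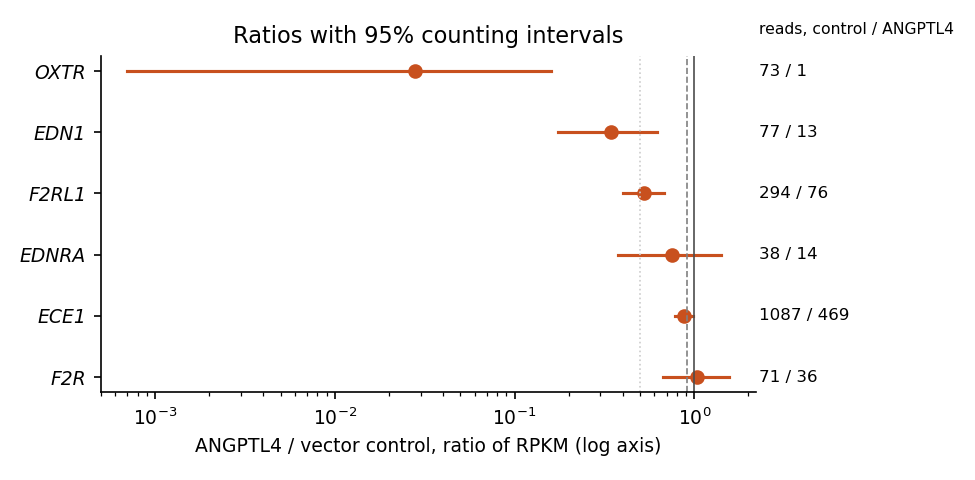
Ratio of RPKM in the ANGPTL4 library to the vector control library (log axis) for the 6 measured genes, with exact 95% counting intervals and the reads behind them at the right; the solid line marks 1, the dashed line the median ratio of 0.907 and the dotted line a 2-fold lower level. The intervals of F2R and EDNRA cross 1, and that of OXTR ends at 0.160.

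Depth limits such ratios, so each member was placed among protein-coding genes with a similar number of control reads (0.8 to 1.25 times its own). Of 1039 such genes with 59 to 91 control reads, OXTR had the lowest ratio and was the only one with fewer than 2 reads in the ANGPTL4 library, while the median ratio was 0.889. Of 1070 genes with 62 to 96 control reads, 19 had a lower ratio than EDN1. The places of OXTR and EDN1 are a description only, because their difference between the libraries chose the family. F2RL1 was lower than all but 48 of 1529 genes with 236 to 367 control reads. EDNRA, ECE1 and F2R lay within the body of their classes, with 257 of 710, 248 of 620 and 674 of 1013 genes below them. Over classes of exon length the median log2 ratio ran from -0.16 to -0.07, highest for genes with at least 8000 bases. It was -0.16 for 1307 protein-coding genes with 2000 to 2999 bases of exon, the class of EDN1 and F2RL1. For 1424 genes with 4000 to 4999 bases, the class of OXTR, EDNRA and F2R, it was -0.12. For 3065 genes with 5000 to 7999 bases, the class of ECE1, it was also -0.12.

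**Figure D3:**
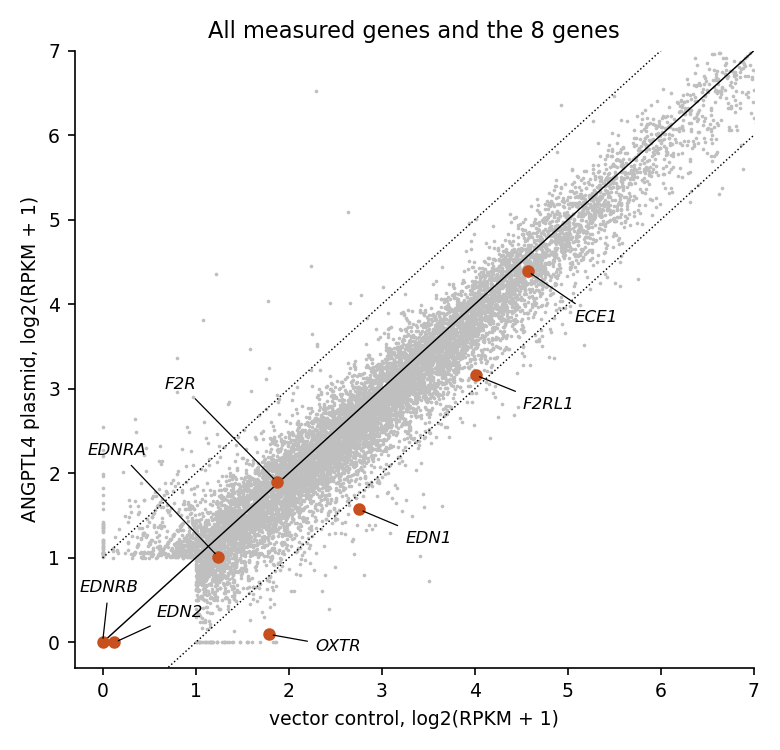
Each grey point is a measured gene at its log2(RPKM + 1) in the vector control library (horizontal) and the ANGPTL4 library (vertical), with the 8 genes in orange; the solid line marks equal levels and the dotted lines 2-fold differences, and genes above 7 on either axis lie outside the plot. OXTR and EDN1 lie beyond the lower dotted line, F2RL1 lies just inside it, and F2R lies on the line of equal levels.

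The levels of the genes beside OXTR, EDN1 and F2RL1 on the chromosome are given within 500 kb, counted between the nearest edges of the genes. No comparison with these members is tested, because the family was chosen on this contrast. RAD18, a ubiquitin ligase gene of the DNA damage response, was the only measured protein-coding gene in that window of OXTR, and it had 3.73 RPKM with the vector and 3.59 RPKM with the plasmid. HIVEP1, a zinc finger gene, and ADTRP, measured in the window of EDN1, had 4.45 and 4.25 RPKM for the first and 0.990 and 1.19 RPKM for the second. Around F2RL1, besides F2R, the scaffold gene IQGAP2 was at 1.60 and 1.33 RPKM, the angiogenic factor gene AGGF1 at 6.66 and 8.33 RPKM and ZBED3 at 1.61 and 1.71 RPKM.

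**Figure D4:**
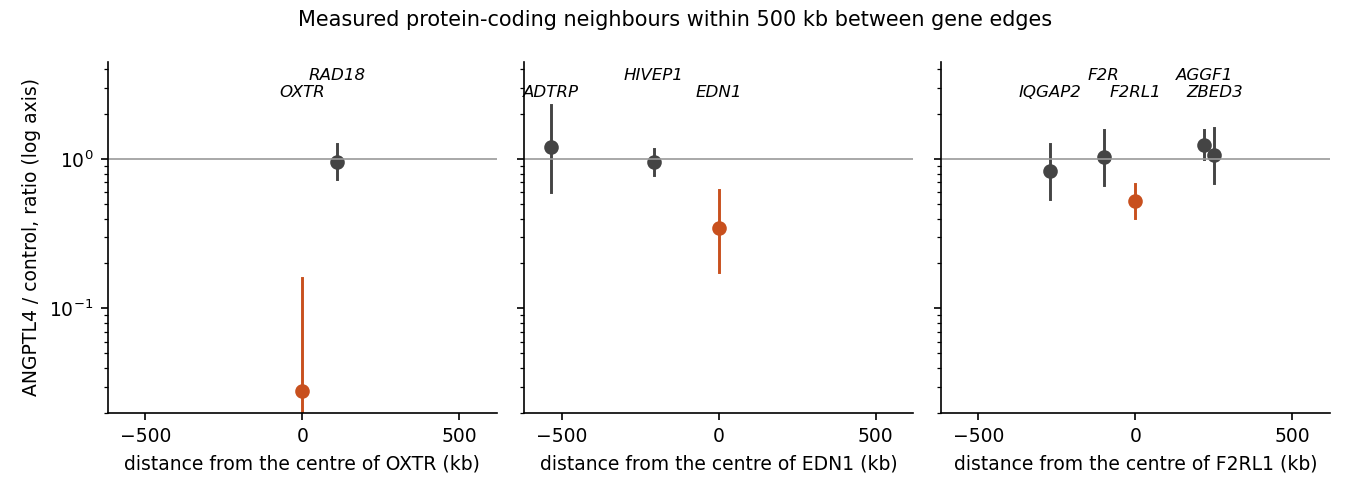
Ratio of the ANGPTL4 library to the vector control library (log axis) for OXTR, EDN1 and F2RL1 (orange) and the measured protein-coding genes whose nearest edge lies within 500 kb (dark), plotted by distance between gene centres in kb, so that ADTRP stands at 534 kb; bars are exact 95% counting intervals, the lower end of the OXTR bar lies below the axis, and the line marks 1. The intervals of the neighbours include 1 except that of AGGF1 (1.003 to 1.56), which begins just above it.

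The genes most like OXTR and EDN1 were sought as the 3 protein-coding genes at the shortest distance in log2(RPKM + 1) over both libraries. For OXTR these were S100A7 (distance 0.10), an inflammation-linked calcium-binding protein gene, RAB4B (0.22), an endosomal GTPase gene, and JOSD2 (0.27), a deubiquitinase gene. S100A7 had 2.55 RPKM (9 reads) with the vector and was listed at 0 with the plasmid, RAB4B at 2.32 and 0.236 RPKM from 60 and 3 reads, and JOSD2 at 2.01 and 0.204 RPKM from 20 and 1 reads. None of them had as many control reads as OXTR, with 73. For EDN1 they were TMEM167B (0.13) at 5.26 and 2.10 RPKM, NARS2 (0.13), a mitochondrial asparaginyl-tRNA synthetase gene, at 5.21 and 1.86 RPKM, and WDR54 (0.14) at 5.59 and 2.27 RPKM. With 2 libraries, likeness means no more than similar values in both.

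Among the ligands and enzymes around these receptors, only part was measured. In the oxytocin and vasopressin list, OXT, AVP and the 3 vasopressin receptors AVPR1A, AVPR1B and AVPR2 were listed at 0 in both libraries. LNPEP, the cell-surface aminopeptidase that degrades oxytocin, had 6.38 RPKM (640 reads) with the vector and 4.52 RPKM (223 reads) with the plasmid, a ratio of 0.708 (0.605 to 0.826). In the endothelin list 6 of 11 genes were measured, and 3 were not members. ECE2, a second converting enzyme, had the highest log2 ratio of that list, 0.45, at 2.18 and 3.35 RPKM from 94 and 71 reads (ratio 1.54, 1.11 to 2.11). FURIN, which makes the first cut in the endothelin precursor, was at 43.6 and 42.5 RPKM. The measured precursor-cutting and converting enzymes were present in both libraries, and each differed between the libraries by no more than 1.54-fold.

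The proteases and inhibitors that act on protease-activated receptors held 31 genes in the table and were lower for 15 of the 17 measured. None was 2-fold apart by the size rule, though the ratio of RPKM of KLK14 was 0.469 (0.0857 to 1.71) from 13 and 3 reads. The median log2 ratio was -0.29, where 64.4% of all measured genes were lower with a median of -0.11. For 6 of the 17 the interval of the ratio lay wholly below 1 and for 1 wholly above it, where 28.0% and 8.58% of all measured genes with recovered reads did so. The Kunitz inhibitor gene TFPI2 had the lowest log2 ratio, -0.72, with 11.5 RPKM in vector cells against 6.62 RPKM (ratio 0.574, 0.420 to 0.773). KLK6, a kallikrein that can cut PAR2, had the highest, 0.32, at 41.1 and 51.6 RPKM (ratio 1.26, 1.09 to 1.44). Named here for their roles after their values were seen, F3 (tissue factor, whose complex with factor VIIa cuts PAR2) was at 188 and 128 RPKM and ST14 (matriptase, an epithelial activator of PAR2) at 41.9 and 39.6 RPKM. The thrombin gene F2 and the factor VII gene F7 were listed at 0 in both libraries. The thrombin and protein C cofactor genes THBD and PROCR had 14.0 against 13.3 RPKM and 7.67 against 6.65 RPKM.

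Of the Gq/11 and G12/13 signalling genes downstream of the receptors, 20 of 28 were measured, 14 lower and 6 higher, none of them 2-fold. Their median of -0.12 was near the -0.11 of all measured genes, 64.4% of which were lower. For 8 of the 20 the interval of the ratio lay wholly below 1 and for 1 wholly above it, against 28.0% and 8.58% of all measured genes with recovered reads. RHOB, a stress-responsive small GTPase gene, had the lowest log2 ratio, -0.53, at 10.4 and 6.93 RPKM (ratio 0.665, 0.478 to 0.912), and PLCB3, a phospholipase C that Gq activates, the highest, 0.37, at 24.0 and 31.3 RPKM (ratio 1.30, 1.16 to 1.46). The Gq and G11 subunit genes GNAQ and GNA11, named for their role, had 16.8 against 13.3 RPKM and 8.90 against 6.34 RPKM. Of 11 measured receptor kinase, arrestin and RGS genes, which shut such receptors off, 9 were higher and 2 lower, none 2-fold, with a median of 0.11, where 64.4% of all measured genes were lower. None of the intervals of the 10 with recovered reads lay wholly on one side of 1, against the same 28.0% below and 8.58% above. RGS20 was highest in log2 ratio (0.51), at 1.48 and 2.52 RPKM, and RGS2, an inhibitor of Gq, lowest (-0.51), at 1.90 and 1.04 RPKM.

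Transcripts that stimulation of these receptors is known to raise lay on both sides. Of 16 measured genes 8 were lower and 8 higher, where 64.4% of all measured genes were lower. None was 2-fold apart by the size rule on the log2(RPKM + 1) scale, and the median was 0.03. The interval lay wholly below 1 for 3 and wholly above it for 3 of the 15 with recovered reads. Of all measured genes with recovered reads, 28.0% lay wholly below 1 and 8.58% wholly above it. PTGS2, the inducible cyclooxygenase gene, had the lowest log2 ratio, -0.92, at 32.2 and 16.5 RPKM, and EGR1, an immediate early transcription factor gene, the highest, 0.79, at 11.5 and 20.7 RPKM. Genes known to regulate EDN1 transcription were lower for 8 and higher for 7 of 15 measured, against the same 64.4% lower, with a median of 0.00. The interval lay wholly below 1 for 2 and wholly above it for 4, against the same 28.0% and 8.58%. SMAD2, a mediator of TGF-beta signals, was lowest (-0.41), at 5.09 and 3.57 RPKM. FOS, a subunit of AP-1, was highest (0.66), at 0.423 and 1.24 RPKM from 9 and 13 reads (ratio 2.94, 1.16 to 7.78). FOS reached 1 RPKM only in the ANGPTL4 library, where it was higher, so nothing is read from its place or its counts in both lists. Over these lists together, 0 of 84 measured genes that are not members were 2-fold apart by the size rule on the log2(RPKM + 1) scale. By that rule 1.92% of all measured genes were lower and 1.19% higher. The plain ratios of RPKM of FOS and KLK14, both from few reads and each at 1 RPKM or more in only 1 library, were past 2-fold. Of the 84 genes, 51 were lower, against 64.4% of all measured genes.

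**Figure D5:**
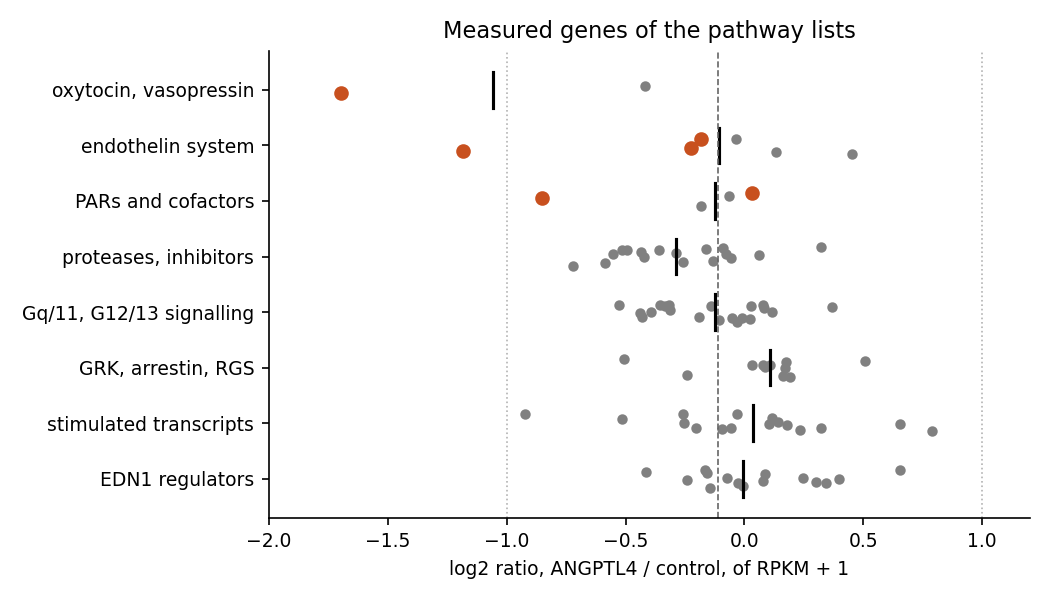
log2 ratio of RPKM + 1, ANGPTL4 library over vector control library, for the measured genes of the 8 pathway lists; orange points are members of the family, grey points other genes, black bars the median of each list, the dashed line the median of all measured genes (-0.11), and the dotted lines 2-fold differences. OXTR and EDN1 are the points beyond the dotted lines.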

How the data were processed

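RNA of 2 libraries of BFTC 905 cells was analysed, 1 per group by the transfection in its label. The authors deposited RPKM, with a single value for each row, as the column headers state. Per the submitters' processing notes, reads were placed on hg19. No aligner, counting program, annotation release or strand setting is given in the sources used here. Rows of 1 symbol were summed (55771 symbols), and region starts, which count from 0, are printed counting from 1.

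Depth was recovered as the smallest total at which the 13 mitochondrial protein genes gave whole reads (tolerance 0.0001). For each gene the exon length giving whole reads in both libraries was taken, the one nearest to GENCODE release 29 where several did. It was settled for 90.4% of measured genes, and equalled the GENCODE length for 6 of the 7 members with reads. Ratio intervals are exact 95% conditional intervals, and level intervals exact Poisson intervals. Both cover counting error, not differences between cultures. Reads per gene carry no p-value, because each group has 1 library.

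The members and lists were chosen with earlier results of these data known. Named are all members, the genes at both ends of each list and any 2-fold apart, the 3 genes most like OXTR and EDN1, and neighbours within 500 kb between gene edges. Other genes, such as FURIN, THBD, PROCR, GNAQ, GNA11, F3 and ST14, were named for their roles after their values were seen. The scripts were tested on simulated data. Python 3.11.15, numpy 2.4.6, pandas 2.3.3 and scipy 1.17.1 were used. Alternatives were pseudocounts of 0.1 and 5, no minimum or 5 RPKM, 4 scalings, and a rule on intervals.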

Additional observations from a re-analysis of the deposited data

How the results depend on the processing

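By point value, OXTR, EDN1, F2RL1, EDNRA and ECE1 stayed lower in the ANGPTL4 library under every alternative that gave them a value. Their ratios of RPKM over the 4 scalings ran from 0.0248 to 0.0301 for OXTR, 0.305 to 0.371 for EDN1, 0.467 to 0.568 for F2RL1, 0.666 to 0.809 for EDNRA and 0.780 to 0.948 for ECE1. F2R ran from 0.916 to 1.11 and was below 1 with a fixed total of RPKM, which lowered the median log2 ratio by 0.14. No intervals are given for the scalings, and the interval of EDNRA as reported (0.375 to 1.41) included 1. The log2 ratio of OXTR depended on the pseudocount, at -3.93 with 0.1 and -0.56 with 5. The count of members at least 2-fold lower, 2 as reported, was 0 with a pseudocount of 5. It was 1 with a minimum of 5 RPKM, which leaves OXTR out, and 1 where the whole interval of the ratio had to lie past 2-fold, which EDN1 does not meet. Pathway genes outside the family, of which 0 were 2-fold apart in either direction, gave 1 lower (KLK14) and 1 higher (FOS) with a pseudocount of 0.1, and 1 lower (PTGS2) with a fixed total. All measured genes at least 2-fold lower and higher, 226 and 141 as reported, numbered 532 and 284 with a pseudocount of 0.1, 26 and 15 with 5, 126 and 34 with a minimum of 5 RPKM, 139 and 196 after centring on the median gene, 346 and 104 with a fixed total, 203 and 149 after upper-quartile scaling, 162 and 173 with small RNA, mitochondrial and ribosomal protein genes left out of the total, and 58 and 20 by the interval rule. The 1 OXTR read in the ANGPTL4 library sets the precision of its ratio. No paired analysis was possible because each group has 1 library.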

Other observations

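PLCB1, a phospholipase C that Gq activates, stayed under 1 RPKM and so outside the counts above, at 0.209 RPKM from 30 reads in the vector control library and 0.537 RPKM from 38 reads in the ANGPTL4 library, a ratio of 2.57 (95% counting interval 1.55 to 4.30). PLCB1 was chosen after its values were seen. PLCB2 and PLCB4, also under 1 RPKM in both libraries, had ratios of 0.834 (0.435 to 1.53) and 0.610 (0.108 to 2.37).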
